A study of Rattus norvegicus with 3 samples.

Results

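Solute carriers are membrane proteins that move nutrients, ions, vitamins and metabolites across cell and organelle membranes. The 75 genes described here, on 80 probes, were those whose platform symbol begins with Slc followed by a digit or the letter o. The microarray table holds 4379 named genes and 6653 probes, of which 4820 carry a symbol. By the same rule 11 carriers were left out: Slc5a1, Slc2a1, Slc2a2, Slc2a5, Slc37a4, Slc28a2, Slc15a1, Slc7a8, Slc39a4, Slc9a3 and Slc12a2. The remaining genes cover amino acids, metals, vitamins, organic ions, carboxylates, nucleosides and inorganic ions, with 13 genes of the Slc25 family. Slc7a6os shares a carrier's symbol through its gene position and is no carrier, so 74 of the 75 are carriers or their subunits.

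The RNA came from the jejunum of male Sprague-Dawley rats, 6 weeks old, with no treatment or mutation named in the labels. Frozen mucosa was sectioned at 10 µm parallel to its surface, and each fraction pooled 10 sections, or 100 µm. Counted from the villus top, fraction 1 of 7 was the top villus sample, fraction 4 the middle villus sample and fraction 6 the crypt sample. Each of these 3 parts had 1 sample, the number of animals behind it is not stated, and so no test between parts was possible and no p-value is given.

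As background, a villus enterocyte takes up a nutrient with a carrier in its brush border and releases it into the blood with another in its basolateral membrane. Many brush border carriers are driven by the sodium or proton gradient, and several amino acid carriers work only as a pair of a light and a heavy chain. Carriers of the Slc25 family sit mainly in the inner mitochondrial membrane, where they pass phosphate, nucleotides and metabolites between cytosol and matrix. Cells are born in the crypt, mature as they move up the villus and are shed at its top.

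Values are deposited log2 signals. A value in the lowest 25% of its column is called dim, which means under 6.05 in crypt, 4.15 in middle villus and 5.15 at the top. A difference with 1 dim part is a bound and is written "at least", with the dim value set to that limit. Of the 75 genes 37 were measured in all 3 parts, 21 in 2 parts, 10 in 1 part and 7 in none. A gene is called higher or lower at a 2-fold difference. The pooled SD of log2 differences between probes of the same gene, the only error that could be had, was 0.91 between top villus and crypt (206 genes), 0.90 between middle villus and crypt (222 genes) and 1.05 between top and middle villus (247 genes). It holds the spread between probes and none between animals. A gene on 1 probe that differed by less than 3.55-fold, 3.49-fold or 4.27-fold in these comparisons lay within 2 such SDs.

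Markers of the labelled parts were read first. Villus enterocyte markers were higher at the top than in crypt in 6 of 8 genes and lower in none, and in 8 of 8 in the middle villus. All 4 markers of dividing crypt cells were lower in both villus parts. Linear signals were summed over each list of markers. The macrophage and dendritic cell list gave 3635 in crypt, 14541 in middle villus and 42688 at the top (3 genes). These were RT1-Ba, RT1-Da and Cd74, while Cd68, Cd14 and Csf1r of that list were not on the table. Which cells gave this signal was not tested. Plasma and B cell markers summed to 5919, 12977 and 50.3 in the same order (3 genes). Jchain, the brightest of them, had 12.46, 13.64 and 5.62. In the middle villus Derl3 lay within 2-fold of crypt and Tnfrsf17 was at least 9.27-fold lower, and all 3 were lower at the top. Mast cell markers summed to 2894, 2256 and 476 (2 genes), smooth muscle markers to 3556, 3645 and 4205 (5 genes) and goblet cell markers to 17120, 16881 and 16473 (3 genes). Of the goblet genes Tff3 and Zg16 lay within 2-fold of crypt in both villus parts, and Clca1 was dim at the top, at least 57.4-fold lower than in crypt. For T and NK cells, 3 of 4 markers stood above crypt and 1 below it in each villus part, with sums of 2952, 3009 and 3968. Enteroendocrine markers summed to 5918, 4752 and 11724 (5 genes) and Paneth markers to 2611, 1025 and 1284 (2 genes). Endothelial markers summed to 1491, 1435 and 2525 (4 genes) and fibroblast markers to 2205, 1438 and 1491 (3 genes). Of the fibroblast genes Col1a2 lay within 2-fold of crypt in both villus parts. Dcn was dim at the top, at least 9.96-fold lower than in crypt, and Pdgfra was dim in crypt and at the top. No erythrocyte marker was on the table. The part of these cells in the carrier values was not tested, and in bulk tissue fewer cells of a type and less RNA per cell cannot be told apart.

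Against the crypt, the top of the villus had the monocarboxylate carrier Slc16a3, the creatine carrier Slc6a8 and the carnitine carrier Slc22a5 higher by 4.79, 4.79 and 4.29 on the log2 scale. The dicarboxylate carrier Slc13a2 was at least 47.6-fold lower at the top. For the whole set, 18 of 67 genes stood higher in top villus and 16 lower, against 23.9% and 39.5% of all 3932 named genes compared. Their median log2 difference was 0.17, and that of all named genes was -0.39. Of these 67 values 28 are bounds. With quantile normalization, 27 were higher and 14 lower, and 1186 and 1352 of all named genes (939 and 1554 as deposited). With no detection filter, which also admits genes dim in both parts, 30 were higher and 21 lower. The share of all named genes without the filter is not given. For genes measured in both parts, 9 of 39 in the set were higher and 8 lower, where 23% and 35.2% of all named genes were. At 4-fold 10 genes of the set were higher and 6 lower, against 12.1% and 22% of all named genes. The share of the set higher at the top (26.9%) was close to the background, and the share lower (23.9%) was below it, a difference that was not tested.

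Between middle villus and crypt, 20 of 63 genes were higher in the middle villus and 16 lower, against 19.1% and 29.5% of all 3825 named genes compared. The median was 0.28 for the set and -0.08 for all named genes. With a common level of 6.05 for dim values, chosen after the data had been seen, 20 were higher and 8 lower. The share of all named genes at that level is not given for any comparison. With quantile normalization 25 of the set were higher and 11 lower, and 935 and 939 of all named genes (730 and 1127 as deposited). Of 40 genes of the set measured in both parts 13 were higher and 8 lower, against 19.2% and 22.8% of all named genes. At 4-fold 8 were higher and 10 lower, against 6.12% and 18.7%. Between top and middle villus, 29 of 62 were higher at the top and 14 lower, against 29.5% and 27.4% of all 3768 named genes. Of 48 measured in both parts 19 were higher and 11 lower, against 24.2% and 25.6%, and at 4-fold 10 were higher and 4 lower, against 13.8% and 13.7%. Of these 62 values 14 are bounds. The limit for dim values was 5.15 at the top and 4.15 in the middle villus. Any gene measured at the top and dim in the middle villus was therefore called higher, whatever its level. In the same way, any gene measured in crypt (limit 6.05) and dim in the middle villus was called lower there. The count of 29 changed with the handling of dim values. The counts were 21 and 13 with quantile normalization, where 947 and 1018 of all named genes were called (1112 and 1033 as deposited). With the common level they were 17 and 14. Giving the columns the same median put the median of all named genes at -0.15 between top villus and crypt, where it was -0.39 as deposited, and at 0.24 between top and middle villus, where it was 0. As deposited, 15 of 67 genes of the set were highest in crypt, 24 in the middle villus and 28 at the top (22.4%, 35.8% and 41.8%), against 41.9%, 23.8% and 34.3% of 4045 named genes.

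Differences past 2 probe SDs, among genes measured in both parts, were few. At the top, Slc16a3, Slc22a18, Slc22a23, Slc22a5, Slc6a8 and Slc9a2 lay that far above crypt, 6 of 39, against 12.5% of all named genes. Slc20a2, Slc25a17, Slc33a1, Slc35b2 and Slc7a1 lay that far below it, 5 of 39, against 20.7%. In the middle villus, Slc16a3, Slc22a18, Slc22a5, Slc6a8, Slc7a7 and Slc9a2 lay above crypt by as much (6 of 40, against 7.49%), and Slc25a17 and Slc7a6os below it (2 of 40, against 11.7%). Slc16a6, Slc17a5, Slc19a2, Slc22a5, Slc30a2, Slc31a2 and Slc7a6os were so far higher at the top than in the middle villus (7 of 48, against 8.43%), and Slc3a2 so far lower (1 of 48, against 9.88%).

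**Figure D1:**
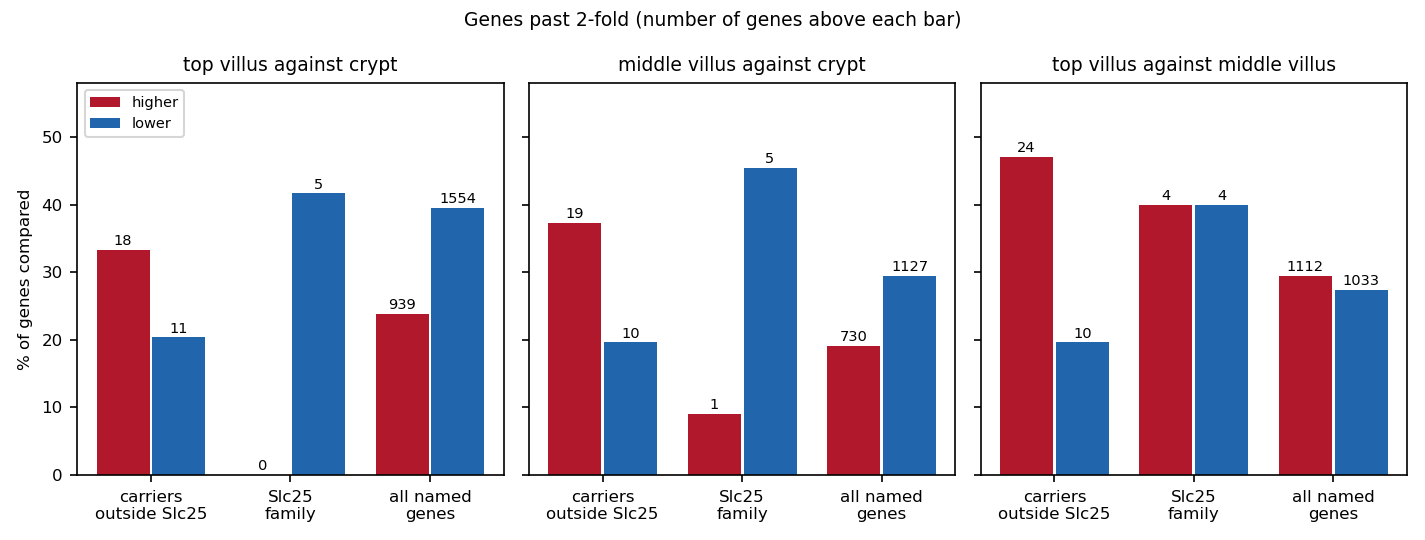
Share of genes compared (y axis, %) that were higher (red) or lower (blue) by 2-fold or more in each comparison, for carriers outside the Slc25 family, the Slc25 family and all named genes, with gene numbers above the bars. Outside the Slc25 family 18 carriers were higher at the top than in crypt and 11 lower, whereas in the Slc25 family none was higher as deposited (Slc25a20 was, at 1.07, with the columns at the same median) and 5 were lower.

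Amino acid carriers had their highest value in the middle villus in 5 genes of 8, against 23.8% of all named genes. Of the 8 compared, 4 were higher and 2 lower in the middle villus than in crypt, with a median of 0.70, and 1 was higher and 3 lower at the top than in crypt, with a median of 0.09. Between top and middle villus 1 of 7 was higher and 4 were lower (median -1.28). Of all named genes, 19.1% were higher and 29.5% lower in middle villus than in crypt, and 23.9% and 39.5% at the top. Between top and middle villus they were 29.5% and 27.4%. The class had 25% lower than crypt in middle villus and 37.5% at the top, near the shares of all named genes. Slc7a9, the brush border light chain that takes up cystine and basic amino acids, had 10.88 in crypt, 12.15 in middle villus and 10.86 at the top. Slc7a7, the basolateral light chain that releases basic amino acids, had 10.23, 12.38 and 10.65 in these parts. Slc3a2, the heavy chain that partners Slc7a7, had 8.71, 9.83 and 7.32. These 3 genes stood highest in the middle villus, by 1.27, 2.15 and 1.11 over crypt. At the top Slc3a2 was below crypt by more than the limit, at -1.40, while Slc7a7 (0.41) and Slc7a9 (-0.02) lay within it. Slc16a10, which carries aromatic amino acids, was dim in crypt at 4.35 and had 8.54 in middle villus and 7.17 in top villus, at least 5.62-fold and at least 2.18-fold above crypt.

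The 2 genes lower than crypt in both villus parts take up amino acids at the cell surface. Slc7a1, a cationic amino acid carrier, had 8.46 in crypt, 7.30 in middle villus and 6.52 at the top, differences from crypt of -1.16 and -1.94. Slc1a5, which carries glutamine and other neutral amino acids, had 7.02 in crypt and was dim in both villus parts, at 3.79 and -0.77. It was at least 7.33-fold lower in middle villus and at least 3.66-fold lower in top villus than in crypt. The system A carrier Slc38a2 (10.31, 9.75 and 10.78) and Slc38a10 (10.82, 11.10 and 11.01) lay within 2-fold of crypt in both villus parts. The stretch of 250 bases upstream of the Slc7a1 start site is shown because it holds a match to the composite site of ATF4, the transcription factor of amino acid shortage, in capitals (TGATGNAAN, either strand). It is chr12:11664238-11664487 of RefSeq's GRCr8, on the + strand, and the match begins 30 bases before the start.

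Slc7a1: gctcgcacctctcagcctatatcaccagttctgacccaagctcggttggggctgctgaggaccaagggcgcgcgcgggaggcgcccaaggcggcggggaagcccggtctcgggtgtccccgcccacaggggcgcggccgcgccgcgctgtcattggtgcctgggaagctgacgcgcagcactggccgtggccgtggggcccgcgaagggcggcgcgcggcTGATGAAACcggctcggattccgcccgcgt

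The letter search covered 7 motifs, chosen after values had been seen, and the 3 promoters shown were chosen after their matches had been seen. This match was in 1132 of 33469 rat promoter stretches of this length (3.38%) and in 1 of the 66 members matched by symbol (1.52%).

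Several metal carriers stood highest at the top of the villus, with crypt values that were often dim. Of 9 such genes, 5 were higher and 1 lower at the top than in crypt (median 1.12), 2 were higher and 2 lower in middle villus than in crypt (median 0.53), and 6 were higher and none lower at the top than in the middle villus (median 1.41). The shares of all named genes are 23.9%, 19.1% and 29.5% higher and 39.5%, 29.5% and 27.4% lower in these comparisons. Of 5 metal carriers measured in both top villus and crypt 2 were higher and 1 lower (median 0.48), against 23% and 35.2% of all named genes. Of 6 measured in both middle villus and crypt none was higher and 2 were lower (median -0.60), against 19.2% and 22.8%. Slc41a2, a magnesium carrier, was dim in crypt at 4.89 and had 8.62 in middle villus and 10.18 in top villus. It was at least 17.5-fold higher at the top and at least 5.94-fold higher in middle villus than in crypt. Slc31a1, the high-affinity copper importer, was dim in crypt at 3.63 and had 8.04 and 9.46 in middle and top villus, at least 10.6-fold above crypt at the top and at least 3.99-fold in the middle. Slc30a2, a zinc exporter into vesicles, had -3.58 in crypt, which is dim, 6.73 in middle villus and 9.15 in top villus. All 3 genes were dim in crypt and stood highest at the top, and Slc30a2 was at least 8.59-fold higher there than in crypt and 2.42 higher on the log2 scale than in middle villus.

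Other metal genes had other orders. Slc31a2, a copper carrier of endosomes and lysosomes, had 6.26 in crypt, 5.02 in middle villus and 7.74 at the top. Its difference from crypt was 1.48 at the top and -1.24 in the middle villus, and with quantile normalization the middle villus difference was 0.28. Slc48a1, a haem carrier, had 6.40, 5.62 and 7.52 in the same order, 1.12 higher at the top than in crypt. Slc30a9, a zinc carrier of mitochondria, had 9.94, 9.52 and 8.55, with a difference of -1.39 between top villus and crypt. The zinc carriers Slc30a4 (10.14, 10.66 and 10.62) and Slc39a3 (8.94, 9.79 and 9.32) lay within 2-fold throughout. Slc30a5, a zinc carrier of the early secretory pathway on 2 probes, had 8.39, 7.12 and 8.07 on the probe measured in all parts, whose difference between middle villus and crypt was -1.27. The other probe was dim in crypt (2.11) and middle villus (1.39) and had 5.65 at the top. Slc30a3, Slc30a6 and Slc39a10 were dim in every part and were not compared.

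The promoters of a pair of zinc carriers are shown because 1 gene passed 2-fold along the column and the other lay within it, while each holds matches to the metal response element of the zinc-sensing factor MTF-1 (TGCACNC or TGCGCNC, either strand), in capitals. Slc30a2 is at chr5:151843201-151843450 on the + strand, with matches that begin 89 and 21 bases before the start site. Slc30a4 is at chr3:130228889-130229138 on the - strand, with matches that begin 210 and 74 bases before it.

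Slc30a2: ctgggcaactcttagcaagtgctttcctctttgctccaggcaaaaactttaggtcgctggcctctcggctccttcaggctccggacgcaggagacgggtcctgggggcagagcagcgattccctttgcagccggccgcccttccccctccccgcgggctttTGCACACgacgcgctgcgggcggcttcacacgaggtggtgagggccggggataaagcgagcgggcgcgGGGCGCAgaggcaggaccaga

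Slc30a4: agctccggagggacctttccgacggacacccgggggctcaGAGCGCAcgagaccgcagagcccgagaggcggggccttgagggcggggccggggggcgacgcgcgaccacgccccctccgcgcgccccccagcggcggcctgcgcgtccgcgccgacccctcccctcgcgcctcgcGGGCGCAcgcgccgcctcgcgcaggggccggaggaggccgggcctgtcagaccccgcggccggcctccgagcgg

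Both stretches hold 2 matches, and so the gene that was dim in crypt and the gene that was level along the column do not differ in this count. Such a match was in 6883 of 33469 promoter stretches (20.6%) and in 20 of 66 members (30.3%). Those of Slc31a1 and Slc41a2 hold 0. The core of the hypoxia response element (ACGTG, either strand) was in 16.6% of all stretches and in 14 of 66 members (21.2%), and that of Slc16a3 holds 0. Of the other motifs, those of HNF1 and HNF4 (CAAAGTCCA), AGATAA of GATA factors and TTTATNG or TTTATNA of CDX factors were in 0.0896%, 0.338%, 10.3% and 21.4% of all stretches, and in 0, 0, 0 and 7 of 66 members. A match or its absence is a description of these letters.

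Among vitamin and choline carriers Slc19a2, Slc23a1 and Slc44a1 were higher at the top than in crypt. Of the 6 compared, 3 were higher and none lower at the top than in crypt (median 0.86), or 5 with quantile normalization, and 4 were higher and 1 lower in middle villus than in crypt (median 1.18). Of all named genes, 23.9% were higher and 39.5% lower at the top than in crypt, and 19.1% and 29.5% in the middle villus. With quantile normalization 1186 named genes were higher at the top, against 939 as deposited. Of vitamin and choline carriers measured in both parts 1 of 3 was higher at the top and 1 of 2 in the middle villus. Slc19a2, the thiamine carrier, was dim in crypt at 5.23 and had 7.12 in middle villus and 9.89 in top villus, at least 14.3-fold above crypt at the top. Slc23a1, the sodium-driven vitamin C carrier, was dim in crypt at 3.77 and had 8.23 and 8.13 in middle and top villus, at least 4.55-fold and at least 4.24-fold above crypt. Slc44a1, a choline carrier, had 8.67, 8.87 and 10.01, so that the top stood 1.35 above crypt. Slc5a6, the sodium-driven carrier of biotin and pantothenate, had 8.76 in crypt, 10.40 in middle villus and 8.43 at the top. Slc44a4, a carrier of thiamine pyrophosphate in human colon cells, was dim in crypt at 5.50 and had 7.34 in middle villus and 6.41 in top villus. Both had their highest value in the middle villus, at 1.64 above crypt for Slc5a6 and at least 2.45-fold above it for Slc44a4. The riboflavin carrier Slc52a3 had 6.33 in crypt, 3.30 (dim) in middle villus and 6.71 at the top, at least 4.54-fold lower in the middle villus than in crypt. That difference was -0.44 with quantile normalization.

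**Figure D2:**
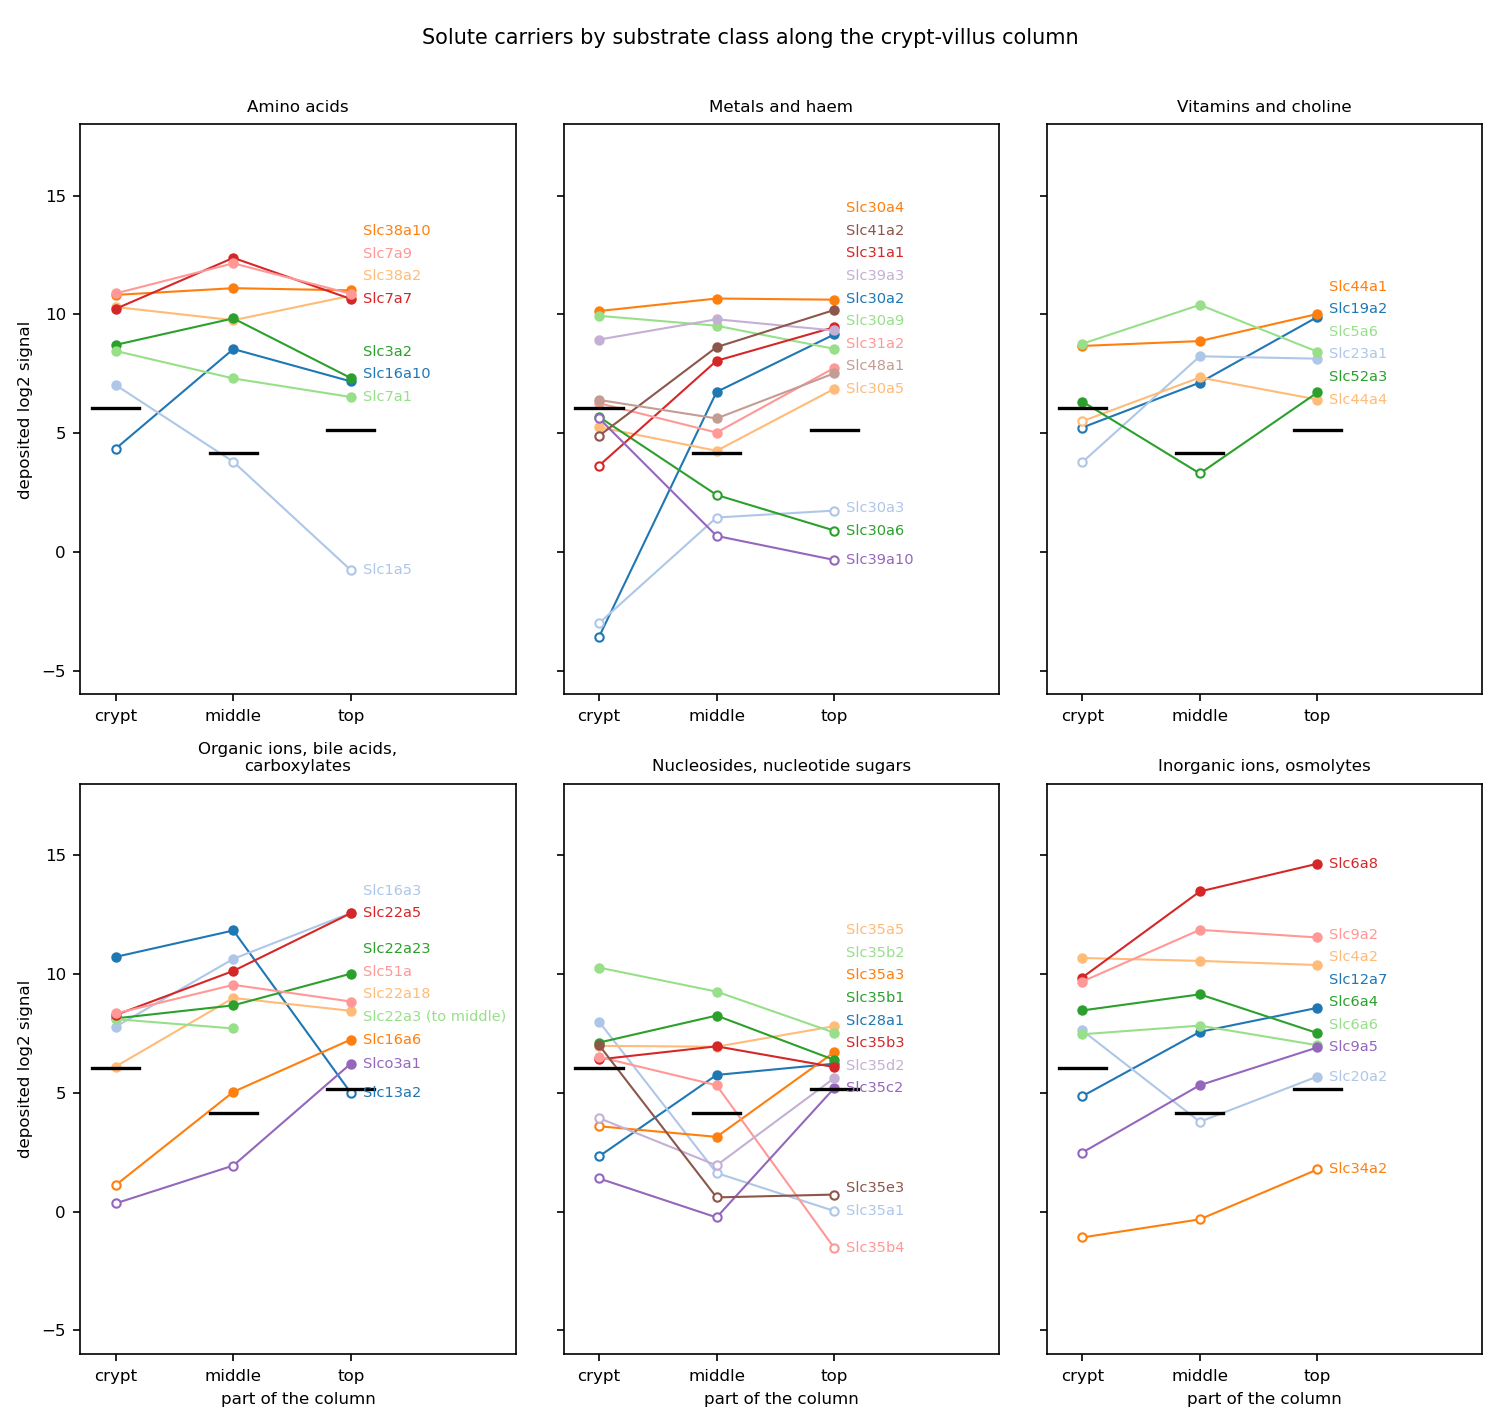
Deposited log2 signal (y axis) in crypt, middle villus and top villus (x axis) for members by substrate class, 1 line per gene with its name at the right. Each point is the mean of a gene's probes, filled where at least 1 probe was measured and open where all were dim. The short black bars mark the limit for dim values in each part (6.05, 4.15 and 5.15). Slc30a5 in crypt (5.25) and Slc35a3 in middle villus (3.14) are filled under the bar because 1 of their 2 probes was measured. Slc16a3, Slc22a5 and Slc6a8 are higher in each part than in the one below it, while Slc13a2 is dim at the top alone. Slc27a1, Slc33a1, Slc17a5, Slc2a8, Slc15a4, Slc66a2 and Slc7a6os are not drawn.

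Organic ion and carboxylate carriers included several of the widest differences. Of 5 carriers of organic anions, cations and bile acids compared, 3 were higher and none lower at the top than in crypt (median 1.88), and likewise 3 and none in middle villus against crypt (median 1.20). The shares of all named genes were 23.9% higher and 39.5% lower at the top, and 19.1% and 29.5% in middle villus. Slc22a5, which takes up carnitine with sodium, had 8.27 in crypt, 10.13 in middle villus and 12.56 at the top. Slc22a18, an organic cation carrier, had 6.10, 8.99 and 8.45, which is 2.34 higher at the top and 2.89 higher in the middle than in crypt. The 2 probes of Slc22a23, a carrier without an agreed substrate, were 1.80 and 1.96 higher at the top than in crypt. In the middle villus they differed from crypt by 1.27 and -0.17. Slc51a, a subunit of the basolateral bile acid exporter, had 8.34, 9.54 and 8.84, 1.20 above crypt in the middle villus. Slco3a1, an organic anion carrier, was dim in crypt (0.34) and middle villus (1.94) and had 6.23 at the top, at least 4.24-fold above middle villus. With quantile normalization it was also 1.20 above crypt. Slc22a3, a carrier of organic cations, had 8.10 in crypt and 7.71 in middle villus, and its top villus cell is empty.

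Slc16a3, which exports lactate, had 7.78 in crypt, 10.63 in middle villus and 12.57 at the top. It stood 4.79 above crypt at the top and 2.85 above it in the middle villus and was measured in all 3 parts. Slc16a6, a relative in the same family, was dim in crypt at 1.11 and had 5.04 and 7.24 in middle and top villus, at least 2.29-fold above crypt at the top. Slc13a2, the sodium-driven carrier of citrate and succinate, was lower at the top. It had 10.72 in crypt, 11.83 in middle villus and 4.99 at the top, where it was dim. The top was at least 103-fold under the middle villus, and the middle villus was 1.11 above crypt. This gene rests on 1 probe in 1 sample of each part.

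Of 3 carriers of osmolytes and transmitters, Slc6a8 alone was past 2-fold from crypt. It takes up creatine with sodium and chloride, and had 9.85 in crypt, 13.47 in middle villus and 14.64 at the top. These values put it 4.79 above crypt at the top and 3.62 above it in the middle villus, and its step from middle to top villus was 1.17, or 0.51 with quantile normalization. The taurine carrier Slc6a6 had 7.46, 7.83 and 7.00, and the serotonin carrier Slc6a4 had 8.46, 9.14 and 7.51. Both lay within 2-fold of crypt in either villus part. Slc6a4 was lower at the top than in middle villus, at -1.63.

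Of 3 carriers of sodium, potassium and protons 2 were higher in each villus part than in crypt, and of 2 anion carriers 1 was lower. Among all named genes 23.9% were higher and 39.5% lower at the top, and 19.1% and 29.5% in middle villus. The sodium-proton exchanger Slc9a2 had 9.68 in crypt, 11.86 in middle villus and 11.54 at the top, 1.86 higher at the top and 2.18 higher in the middle than in crypt. Slc12a7, a potassium-chloride cotransporter, was dim in crypt at 4.85 and had 7.56 and 8.57 in the villus parts, at least 5.76-fold above crypt at the top. Slc9a5, another sodium-proton exchanger, was dim in crypt at 2.48 and had 5.32 and 6.91, and its bound at the top, 1.81-fold, lay within the limit, which it passed with the columns at the same median (1.10) or quantile normalized (1.94). The phosphate carrier Slc20a2 ran the other way, with 7.62 in crypt, 3.78 (dim) in middle villus and 5.68 at the top. It was lower at the top than in crypt, at -1.94, and at least 11.1-fold lower in the middle villus. The anion exchanger Slc4a2 was nearly level at 10.67, 10.55 and 10.38. The phosphate carrier Slc34a2 was dim in all parts.

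Nucleoside and nucleotide sugar carriers, most of which load the Golgi or endoplasmic reticulum with building blocks for sugar chains, were lower at the top than in crypt in a share near that of all named genes. Of 11 compared, none was higher (Slc35a5 at 1.07 with the columns at the same median, and Slc28a1, Slc35a3 and Slc35a5 at 1.19, 1.73 and 1.37 with quantile normalization) and 4 were lower at the top (median -0.32), and of 9 compared in middle villus 1 was higher and 4 were lower than in crypt (median -0.04). Of the 11 values for the top against crypt 7 are bounds. The 36.4% lower at the top stand beside 39.5% of all named genes and the 44.4% lower in the middle villus beside 29.5%, and of 4 measured in both top villus and crypt 1 was lower. Slc35b2, which brings the sulphate donor PAPS into the Golgi, had 10.27 in crypt, 9.26 in middle villus and 7.53 at the top, differences from crypt of -1.01 and -2.74. Slc35a1, which carries CMP-sialic acid, had 7.99 in crypt and was dim in middle villus (1.62) and top villus (0.03). It was at least 14.4-fold lower in the middle villus and at least 7.20-fold lower at the top than in crypt. Slc35e3, an orphan carrier, had 7.01 in crypt and was dim at 0.59 and 0.71 in the villus parts. Slc35b4, which carries UDP-N-acetylglucosamine and UDP-xylose, had 6.51, 5.32 and -1.53 (dim), at least 2.57-fold lower at the top than in crypt. Its difference between middle villus and crypt was -1.19. With quantile normalization neither passed the limit, at -0.75 and 0.03.

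The other genes of this class lay closer to the crypt or were dim in it. Slc35b1 had 7.11, 8.25 and 6.38 and was 1.14 above crypt in the middle villus, and Slc35b3, a second PAPS carrier, had 6.40, 6.95 and 6.08. Slc35a5 had 6.53, 5.18 and 6.89 on 1 probe and 7.42, 8.70 and 8.71 on the other. These probes passed 2-fold in opposite directions between middle villus and crypt, at -1.35 and 1.28, and gave 0.37 and 1.29 between top villus and crypt. Slc35a3, a UDP-N-acetylglucosamine carrier, was dim in crypt on both probes and had 6.90 and 6.50 at the top. Slc35c2 and Slc35d2 were dim in crypt and middle villus and had 5.19 and 5.61 at the top. The nucleoside carrier Slc28a1 was dim in crypt at 2.32 and had 5.75 and 6.22 in middle and top villus, under the crypt limit or close to it, so that no 2-fold difference could be called.

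The few carriers of acyl groups, sugars and peptides completed the set. Slc33a1, which brings acetyl-CoA into the endoplasmic reticulum, had 10.41 in crypt, 10.58 in middle villus and 8.01 at the top on the probe measured in all parts, a difference of -2.40 between top villus and crypt. Its other probe was dim in crypt (5.89) and top villus (-0.85) and had 7.52 in middle villus. Slc17a5, the lysosomal sialic acid exporter, was dim in crypt at 2.41 and had 5.68 and 7.84 in the villus parts, at least 3.46-fold above crypt at the top. Slc2a8, an intracellular glucose carrier, was dim in crypt (5.34) and middle villus (0.16) and had 6.73 at the top, at least 5.98-fold above the middle villus. The fatty acid carrier Slc27a1 was dim in crypt at 3.95 and had 5.02 and 5.84, both under the crypt limit, so no direction could be given. Slc15a4, a lysosomal peptide carrier, and Slc66a2 were dim in every part. Slc7a6os had 6.74, 4.32 and 7.23, a difference of -2.42 between middle villus and crypt, or -0.98 with quantile normalization.

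Among the 13 Slc25 carriers none was higher at the top than in crypt as deposited, and Slc25a20 was (1.07) with the columns at the same median. Of 12 compared there, 5 were lower and 7 within the limit, with a median of -0.64. In middle villus 1 of 11 was higher and 5 were lower than in crypt, with a median of -0.38. The share lower at the top, 41.7%, lay near the 39.5% of all named genes, and the 45.5% lower in the middle villus stands beside 29.5%. For those measured in both parts, 2 of 8 were lower at the top (median -0.29), against 35.2% of all named genes. Of 8 measured in both middle villus and crypt 1 was higher and 2 were lower, against 19.2% and 22.8%. Their median was 0.27, and 3 of the 11 values compared there are bounds. Slc25a3, the phosphate carrier that supplies ATP synthase, had 11.65 in crypt, 11.27 in middle villus and 11.37 at the top. Slc25a5, an exchanger of ADP for ATP, had 12.81, 13.98 and 12.97, which is 1.17 above crypt in the middle villus and 0.16 above it at the top.

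Carriers of fuel molecules differed in the part where they were lowest. Slc25a11, the exchanger of oxoglutarate for malate, had 9.67 in crypt, 9.86 in middle villus and 7.84 at the top, a difference of -1.83 between top villus and crypt. Slc25a13, the aspartate-glutamate carrier, had 6.70, 7.05 and 3.11 (dim), at least 2.93-fold lower at the top. Both malate-aspartate shuttle genes were within 2-fold of crypt in the middle villus. Slc25a20, which brings acylcarnitine into mitochondria, had 8.90, 9.76 and 9.73, 0.82 above crypt at the top. Slc25a10, the dicarboxylate carrier, had 8.33, 9.20 and 8.03. Slc25a1, the citrate carrier, had 6.70 in crypt, 0.85 (dim) in middle villus and 5.71 at the top, at least 5.88-fold lower in the middle villus than in crypt.

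Slc25a23 and Slc25a25, calcium-regulated exchangers of ATP-magnesium for phosphate, differed. Slc25a23 had 8.04 in crypt and was dim in middle villus (2.80) and top villus (-1.30), at least 14.8-fold and at least 7.41-fold under crypt. Slc25a25 had 9.41, 8.04 and 9.27, a difference of -1.37 between middle villus and crypt. Slc25a17, which lies in peroxisomes and not in mitochondria, had 8.22 in crypt, 4.46 in middle villus and 5.73 at the top, differences from crypt of -3.76 in the middle villus and -2.49 at the top. Without it, 4 of 11 Slc25 genes were lower at the top. Slc25a30, a relative of the uncoupling proteins, had 6.62 in crypt and was dim at -2.61 in middle villus and 4.78 in top villus. Its bounds, at least 5.57-fold and at least 2.78-fold lower than crypt, were both -0.93 on the log2 scale with quantile normalization. Slc25a29, a basic amino acid carrier, was measured only at the top, at 5.85, and Slc25a39, a glutathione carrier, in no part.

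**Figure D3:**
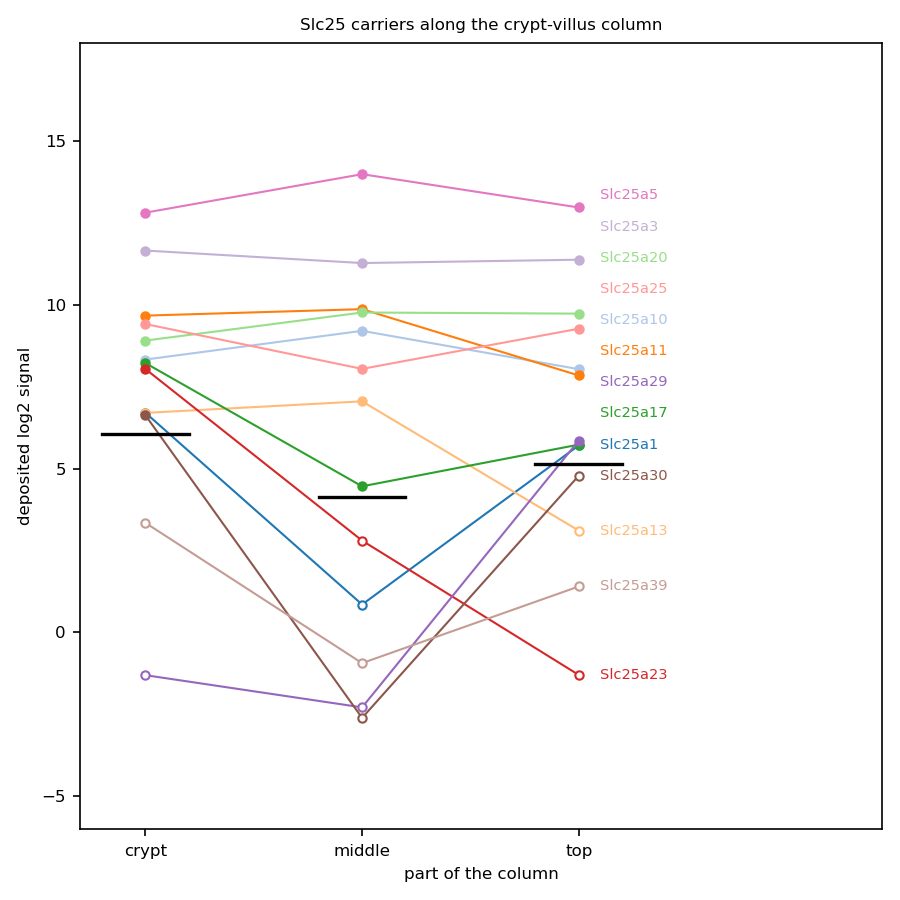
Deposited log2 signal (y axis) of the 13 Slc25 carriers in crypt, middle villus and top villus (x axis), 1 line per gene. Filled points were measured, open points were dim, and black bars mark the limit for dim values. Slc25a3 and Slc25a5 stay between 11.27 and 13.98, and Slc25a23 is dim in both villus parts.

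Set side by side, both comparisons with the crypt, which share that sample, gave every combination of higher, lower and within the limit. The most frequent was within the limit in both, with 16 genes. Among them Slc27a1, Slc28a1, Slc35a3 and Slc9a5 were dim in crypt. Their values are bounds, so a difference past 2-fold could have been missed. There were 11 genes higher than crypt in both villus parts: Slc16a10, Slc31a1, Slc41a2, Slc16a3, Slc6a8, Slc22a18, Slc22a5, Slc12a7, Slc9a2, Slc19a2 and Slc23a1. Another 10 were lower in both: Slc1a5, Slc7a1, Slc20a2, Slc25a30, Slc25a17, Slc25a23, Slc35a1, Slc35b2, Slc35b4 and Slc35e3, of which Slc25a30 and Slc35b4 passed the limit in neither part with quantile normalization. Higher in the middle villus and within the limit at the top were 7 genes: Slc7a7, Slc7a9, Slc25a5, Slc35b1, Slc51a, Slc44a4 and Slc5a6. Slc3a2 and Slc13a2 were higher in the middle villus and lower at the top. Slc31a2 alone was lower in the middle villus and higher at the top, and with quantile normalization it was not lower. Another 5 were lower in the middle villus and within the limit at the top (Slc25a1, Slc25a25, Slc30a5, Slc7a6os and Slc52a3). Within the limit in the middle villus, 6 were higher at the top (Slc30a2, Slc48a1, Slc16a6, Slc22a23, Slc17a5 and Slc44a1) and 4 lower (Slc25a11, Slc25a13, Slc33a1 and Slc30a9). Values within the limit were also bounds for Slc30a2, Slc16a6, Slc17a5 and Slc33a1 in the middle villus and for Slc44a4 and Slc30a5 at the top. The remaining 13 genes were compared with crypt in 1 villus part or in none. With quantile normalization Slc52a3 and Slc7a6os were not called lower in the middle villus either.

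**Figure D4:**
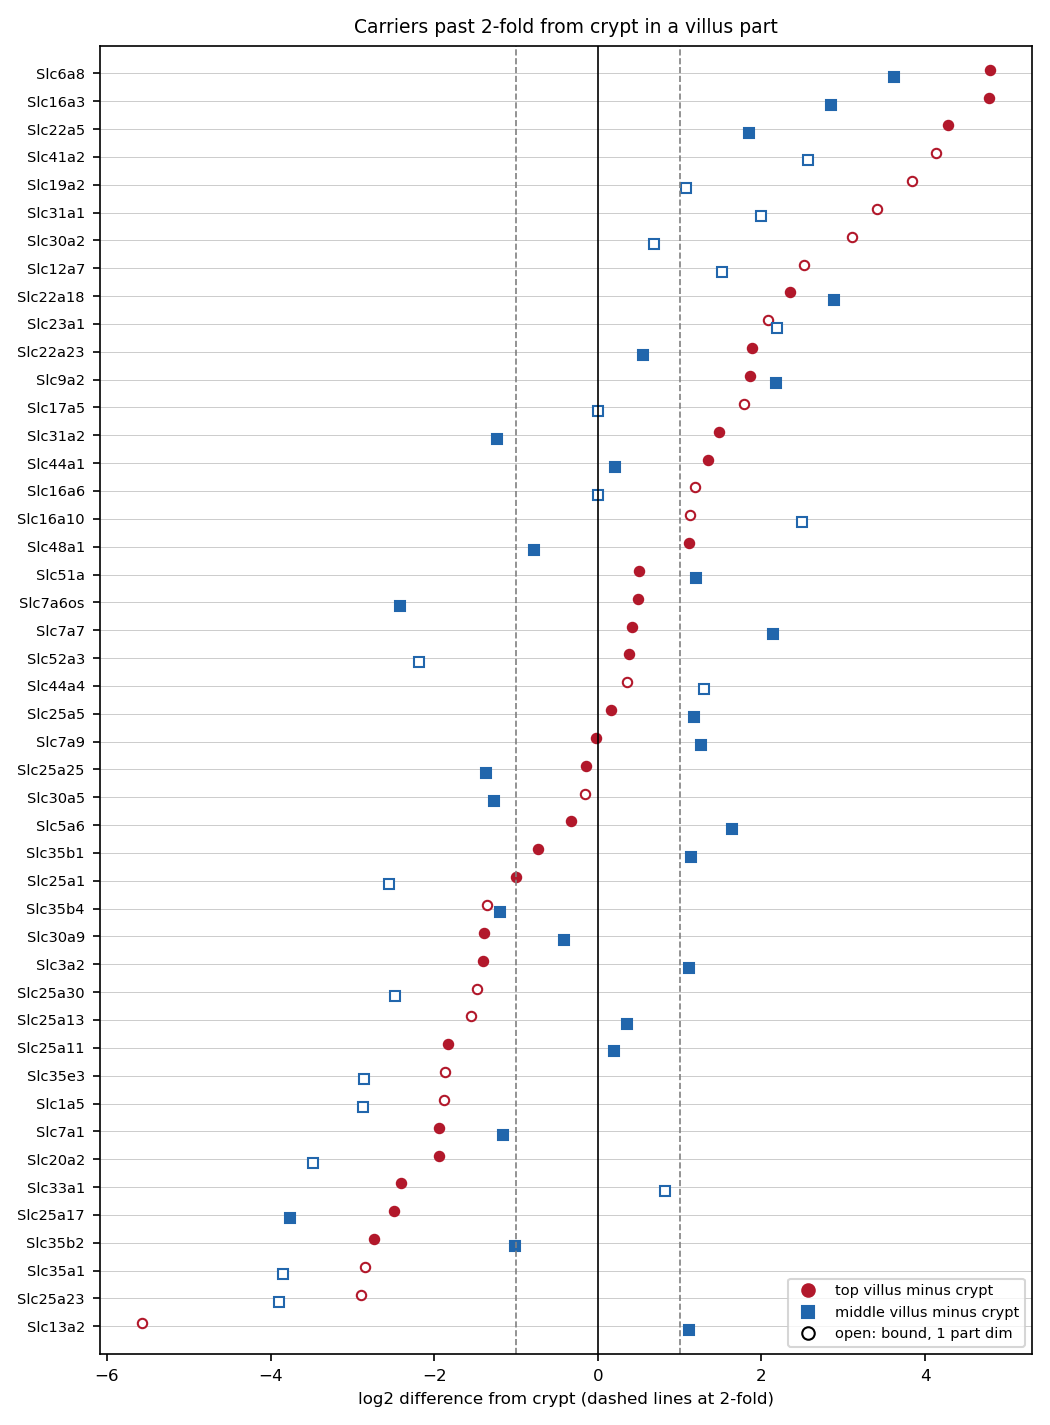
Log2 difference from crypt (x axis) of top villus (red circles) and middle villus (blue squares) for the 46 genes past 2-fold in at least 1 villus part whose sign in that part held under both scalings. Open symbols are bounds, and dashed lines mark 2-fold. Slc6a8 and Slc16a3 lie farthest to the right at 4.79, and Slc13a2 farthest to the left at -5.57.

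Proteins that work with carriers were read from a list of their own. The scaffold Nherf1 was dim in crypt at 5.41 and had 8.94 in middle villus and 9.71 in top villus, at least 12.7-fold above crypt at the top. The scaffold Pdzk1 was dim in crypt at -4.32 and had 5.99 and 7.13, at least 2.12-fold above crypt at the top. The kinase Sgk1, which raises the surface level of several carriers, had 5.98 (dim), 10.18 and 11.34, at least 39.1-fold above crypt at the top. Nedd4l, a ubiquitin ligase that Sgk1 restrains, was at least 6.76-fold above crypt there. Basigin (Bsg), the chaperone of monocarboxylate carriers, had 10.17, 12.11 and 10.79, with the middle villus 1.95 above crypt. The sodium pump subunit Atp1b3 had 9.07, 8.79 and 6.87, a difference of -2.19 between top villus and crypt. Of 10 ABC efflux transporters 6 were higher and 2 lower at the top than in crypt, with Abcc2 at least 15.8-fold higher and Abcc3 at -1.83. The shares of all named genes were 23.9% higher and 39.5% lower. Of the 6 only Abcg5 was measured in crypt, and the others are bounds. The outer mitochondrial membrane channels Vdac2 and Vdac3 were lower at the top, at -1.34 and -1.47, Vdac1 lay at -0.41, and the pyruvate carrier subunit Mpc1 lay at 0.57. No uncoupling protein of the list was on the table.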

How the data were processed

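RNA was isolated with RNeasy columns and labelled by linear amplification, with Cy3 and Cy5 both named, per the labels' protocols. The deposited table holds 1 log2 value per probe and part. The log2 scale was inferred from the values (highest 15.997), and the normalization and channel are not given in the sources used here. Column medians lay between 7.57 and 7.83. The top villus column had 13 empty cells. The 3 scanner files name neither spots nor parts and were left out. The number of arrays, 1 a part, limits the precision.

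All 75 symbols matched RefSeq's GRCr8 table, and 0 changed. Values were compared as deposited. A probe was compared if it stood above the lowest 25% of its column in at least 1 of the 2 parts, and a dim value was set to that 25% level, with no bound passing 0. Probes of a gene were averaged, and the result is a bound if any probe is. The limit was 2-fold. Classes follow textbook substrates, and Slc17a5 and Slc25a17 were placed after values had been seen. The rule for full values took genes past 2-fold from crypt whose sign held after median scaling and after quantile normalization, and genes whose probes passed 2-fold in opposite directions (Slc35a5). Levels of other members were added. Members and lists were chosen with earlier results of these data known. A first motif search used the whole RefSeq windows, later cut to the 250 upstream bases, after its matches had been seen. The steps were tested on simulated data with Python 3.11.15, numpy 2.4.6 and pandas 2.3.3.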

Additional observations from a re-analysis of the deposited data

How the results depend on the processing

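Scaling the columns to the same median or 75th percentile, the brightest probe of each gene, a floor of 32 (linear signal), the looser limit of 1.5-fold and quantile normalization kept the 6 counts of genes higher or lower within 1.5 times of those reported. No detection filter gave 30 genes higher at the top than in crypt, where 18 are reported, with genes dim in both parts also compared. With probes measured in all 3 parts, 37 genes were compared, which lowered the counts to 9 higher and 7 lower between top villus and crypt, to 12 and 7 between middle villus and crypt, and to 11 higher between top and middle villus. There the class of sodium, potassium, proton and calcium carriers held Slc9a2 alone. Its median for top against middle villus, -0.32, is the unchanged value of that gene. At 4-fold there were 10 higher and 6 lower in the first comparison, 8 and 10 in the second and 10 and 4 in the third. Quantile normalization turned Slc31a2 to 0.28 and Slc35b4 to 0.0263 for middle villus against crypt, and the cause was not tested. For that comparison it ended 5 calls and made 5.

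Chosen after the data had been seen, a common level of 6.05 for dim values gave 8 genes lower in middle villus than in crypt and 17 higher at the top than in middle villus. Genes measured in both parts gave 9 and 8 between top villus and crypt, 13 and 8 between middle villus and crypt, and 19 higher between top and middle villus. The median for top against middle villus was -0.04 among those, against 0.65 as reported. No paired analysis was possible because each part has 1 sample. With 1 array a part, signals near the limit for dim values limit what can be said of low genes.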
